A study of Mus musculus with 6 samples.

Results

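These 10 genes carry an interferon signal from the outside of a cell to its first kinases, and they were followed here in leukemia cells labelled Klf4-deficient and in control leukemia cells. They comprise the ligand genes Ifng and Ifnb1, the receptor genes Ifnar1, Ifnar2, Ifngr1 and Ifngr2, the kinase genes Jak1, Jak2 and Tyk2, and the inhibitor gene Socs1. The members were all probes whose platform annotation gives 1 of these 10 symbols, which were 22 of the 45281 probes of the array and 10 of the 19057 genes with a named probe. None of the 22 probes passed the test between the groups, and neither ligand was detected on all arrays of a group.

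RNA came from NOTCH1-induced T cell acute lymphoblastic leukemia (T-ALL) in mice, and was hybridised to Illumina bead arrays with 1 array per sample. Cells positive for GFP, CD4 and CD8 had been sorted from the bone marrow 4 weeks after transplantation. The 3 Klf4-deficient samples are labelled knock out and described as deficient in the study's design text. The 3 control samples are labelled wild type. All 6 samples are labelled male T-ALL cells, so the NOTCH1 leukemia, the transplantation and the sort are shared by both groups. How Klf4 was deleted, the age and strain of the mice and whether samples were pooled are not stated in the labels. Nor is it stated that the samples of a group are separate animals, and the p-values then cover the spread between these samples alone, which may be technical.

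Type I interferons, among them interferon beta, bind a receptor made of IFNAR1 and IFNAR2, to which the kinases TYK2 and JAK1 are attached. Interferon gamma, made mostly by T cells and natural killer cells, binds IFNGR1 and IFNGR2, which hold JAK1 and JAK2. The activated kinases phosphorylate STAT proteins, which enter the nucleus and switch on interferon-stimulated genes, and SOCS1 is one product that feeds back by blocking the kinases. In developing T cells SOCS1 limits the response to cytokines.

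Socs1 was the 1 member whose promoter held a match to the core searched for the interferon-stimulated response element. Its promoter is therefore shown beside that of Isg15, a gene that type I interferon induces strongly. The sequences are the 250 bases before the RefSeq start of each gene on GRCm38.p6, written 5′ to 3′ along the gene. Socs1 lies on the minus strand at chr16:10785537-10785786, and Isg15 on the minus strand at chr4:156200819-156201068. Capitals mark the matches to the core of the interferon-stimulated response element, taken as GAAA, any 2 bases and GAAA again, and searched on both strands.
Socs1: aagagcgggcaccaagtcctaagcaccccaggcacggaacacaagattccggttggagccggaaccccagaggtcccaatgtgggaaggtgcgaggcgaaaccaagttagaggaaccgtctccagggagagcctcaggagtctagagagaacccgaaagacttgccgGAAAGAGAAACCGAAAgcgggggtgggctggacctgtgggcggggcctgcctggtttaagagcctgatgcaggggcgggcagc
Isg15: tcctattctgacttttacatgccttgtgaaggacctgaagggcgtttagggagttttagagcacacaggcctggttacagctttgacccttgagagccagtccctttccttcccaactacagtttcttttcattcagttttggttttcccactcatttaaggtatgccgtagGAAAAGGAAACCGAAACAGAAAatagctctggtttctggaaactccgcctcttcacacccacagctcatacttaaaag
The Socs1 window held 2 overlapping matches, which begin 83 and 77 bases before the start. The Isg15 window held 3 overlapping matches, which begin 78, 72 and 66 bases before the start. The motif was present in 978 of 32851 promoter windows of the same length (2.98%), and in 1 of the 10 members. The palindromic motif TTCNNNGAA of the interferon gamma-activated site, to which STAT dimers bind, was present in the windows of Ifng and Ifnar2 and in 7.02% of all windows. A match is a stretch of letters and not a measured binding site. Nor does a window without a match lack such an element for certain, since the windows of the interferon-induced genes Irf7 and Irf9 held 0 matches to the core.

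The Klf4 measurement did not check the labels. The brightest Klf4 probe gave 80.6, 46 and 85.4 units of signal in arrays 1, 2 and 3 labelled Klf4-deficient, against 44, 18.4 and 24.6 in control arrays 1, 2 and 3. Its log2 difference was 1.03 ± 0.32 (SE, adjusted p = 0.738 from limma), higher in the arrays labelled Klf4-deficient, and where the probe lies relative to the deleted part is unknown. Both other Klf4 probes were under background on every array. The directions given here are therefore those between the arrays so labelled. The limit of detection was set per array at 3 SDs of the background noise, taken from the mirrored negative values, and came to 21.8 to 23.7 units. Mean signal over all probes ran from 359 units in Klf4-deficient array 3 to 445 in control array 3, and 37.9% to 38.5% of the probes were above background on an array. Of 12 measured genes of double-positive thymocytes, 11 were above background on all 6 arrays, Cd4, Cd8b1, Cd3e, Rag1 and Ptcra among them, and Cd8a on 1 of 3 Klf4-deficient and 3 of 3 control arrays.

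Neither ligand gave a signal above background on all arrays of a group. The single Ifnb1 probe, for interferon beta, gave -9, -0.5 and -4.2 units in Klf4-deficient arrays 1, 2 and 3, against -9.5, -4.8 and -6 in the control arrays. Every one of these values lies under 0 after the authors' background subtraction, so Ifnb1 mRNA was not detectable on these arrays in either group. Ifng, for interferon gamma, was read by 2 probes with different outcomes. The first (ILMN_2685712) gave 21.3, 36.9 and 17 units in the Klf4-deficient arrays, against -5.5, 5 and 13.8 in the control arrays. The Klf4-deficient values were all above the control values, but only Klf4-deficient array 2 passed the limit, so no fold is given. This was the 1 of 22 member probes with an unadjusted p under 0.05 (adjusted p = 0.753 from limma), against 6.04% of all probes, and the 1 of 22 whose groups did not overlap, against 9.55% of all probes. The second Ifng probe (ILMN_2791459) gave 14, 15.9 and 7.8 units in the Klf4-deficient arrays, against 15.3, 4.8 and 22.4 in the control arrays. Those groups overlapped and no array passed the limit, so the probes disagree.

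Of 20 measured genes of natural killer and cytotoxic lymphocytes, which make interferon gamma, 5 were higher and 0 lower in Klf4-deficient arrays by an unadjusted p under 0.05, against 3.48% higher and 4.13% lower over all genes. None passed the adjusted threshold in limma. Their mean log2 level, relative to the control mean, was 0.22, 0.54 and 0.57 in Klf4-deficient arrays 1, 2 and 3, against -0.11, 0.13 and -0.02 in the control arrays. Of that list 13 genes lay above 0, 5 below and 2 at 0, and 4 were above background on all 6 arrays. The brightest, Prf1 for the pore-forming protein perforin, gave 1379, 1505 and 1675 units in the Klf4-deficient arrays, against 1467, 2211 and 1995 in the control arrays (log2 difference -0.18 ± 0.24 SE). The other list genes above background on all 6 arrays, Nkg7, Ctsw and Ccl5, lay higher. Their log2 differences were 0.95 ± 0.36, 0.91 ± 0.24 and 1.36 ± 0.38 (SE). Il2rb, a receptor chain for interleukin 2, differed by -0.22 ± 0.17 (SE). It passed the limit on 0 of 3 Klf4-deficient and 1 of 3 control arrays. The receptor gene Klrd1 gave 29.1, 82.9 and 66.7 units in the Klf4-deficient arrays, against 17.1, 15 and 9.7 in the control arrays. It passed the limit on 3 of 3 Klf4-deficient and 0 of 3 control arrays (1.33 ± 0.34 SE, adjusted p = 0.654 from limma). Klrb1c passed it on 1 of 3 Klf4-deficient and 3 of 3 control arrays (-0.04 ± 0.44 SE). Ncr1, Klrk1, Gzmb, Eomes and Tbx21 were among 9 genes under background on every array. The summed signal of the list ran from 2769 to 3813 units in Klf4-deficient arrays and from 2169 to 3252 in control arrays. Their part in the Ifng signal was not tested, and a larger number of such cells and more RNA per cell cannot be told apart in sorted bulk RNA.

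**Figure D1:**
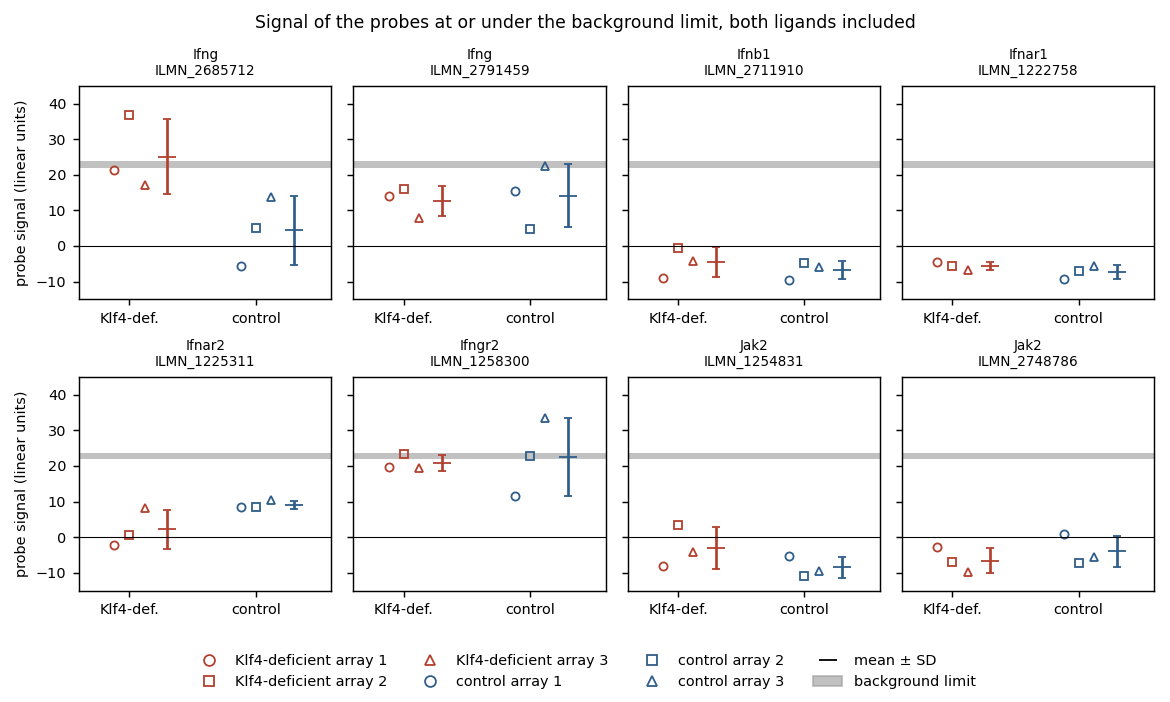
Signal in linear units of the 8 member probes that did not pass the background limit on all arrays of a group, with a point per array (Klf4-deficient in red, control in blue), the mean and SD beside the points, and the limit as a grey band. Ifnb1 and Ifnar1 lie under 0 on all 6 arrays, and the first Ifng probe passes the band in Klf4-deficient array 2 alone, at 36.9 units.

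Other interferon genes gave little signal as well. Apart from Ifng, the arrays carried 34 probes for 19 interferon genes, of which 27 were under background on every array, 5 passed on some arrays and 2 passed on all 6. The Ifnab probe that passed gave 204, 192 and 156 units in Klf4-deficient arrays 1, 2 and 3, against 235, 185 and 225 in the control arrays (log2 difference -0.13 ± 0.08 SE, adjusted p = 0.824). One Ifna6 probe of 4 gave 108 to 114 units in the Klf4-deficient arrays and 108 to 117 in the control arrays. The other Ifnab probe and the other Ifna6 probes were under background on every array. Genes of the interferon alpha family are similar in sequence, and which transcript the 2 passing probes read was not tested. Their signal is therefore not assigned to a single gene. Of the 17 measured type I ligand genes 13 were under background on every array, so no median is given for them.

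Receptor transcripts for both interferon classes were present, with Ifnar1 as the exception. The only Ifnar1 probe gave -4.5, -5.7 and -6.8 units in the Klf4-deficient arrays, against -9.4, -6.9 and -5.6 in the control arrays. All 6 values are under 0, and whether the transcript was lacking or the probe did not read it was not tested. Ifnar2, the partner chain, was read by 3 probes. The first (ILMN_2598703) gave 484, 350 and 357 units in the Klf4-deficient arrays, against 463, 383 and 440 in the control arrays. The groups overlapped, and the normalized log2 difference was -0.01 ± 0.13 (SE), with a 95% interval from -0.34 to 0.32. The second Ifnar2 probe (ILMN_2971514) gave 169, 161 and 193 units in the Klf4-deficient arrays, against 175, 213 and 195 in the control arrays, a difference of -0.05 ± 0.17 (SE). The third was under background on every array.

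Ifngr1, the ligand-binding chain of the interferon gamma receptor, had the lowest difference among the members above background on all 6 arrays, and it did not pass. Its probe gave 2069, 2727 and 1678 units in Klf4-deficient arrays 1, 2 and 3, against 2374, 2468 and 3108 in the control arrays. Klf4-deficient arrays 1 and 3 lay under every control array, and array 2 lay above 2 of the 3. The means were 2158 ± 530 units in Klf4-deficient arrays and 2650 ± 399 in control arrays (SD, n = 3 each). The log2 difference was -0.21 ± 0.15 (SE, 95% interval -0.61 to 0.19, adjusted p = 0.824 from limma). Leaving out any single array, it ran from -0.33 to -0.11. Klf4-deficient array 3 also carried the highest erythroid and monocyte markers (log2 levels 1.64 and 1.15 over the control mean), and without it the Ifngr1 difference was -0.14.

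Ifngr2, the signalling chain, did not pass with any of its 3 probes. Its first probe (ILMN_2784272) gave 875, 942 and 1087 units in the Klf4-deficient arrays, against 968, 1383 and 1233 in the control arrays. Here Klf4-deficient array 3 was the highest of its group, and the log2 difference was -0.17 ± 0.23 (SE, 95% interval -0.78 to 0.44). Leaving out any single array, it ran from -0.35 without Klf4-deficient array 3 to -0.02 without control array 2. The second Ifngr2 probe (ILMN_2592709) gave 30.1, 44 and 42.8 units in the Klf4-deficient arrays, against 25.9, 50.4 and 42.7 in the control arrays, close to the limit. The third (ILMN_1258300) passed the limit on 1 of 3 Klf4-deficient and 2 of 3 control arrays.

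**Figure D2:**
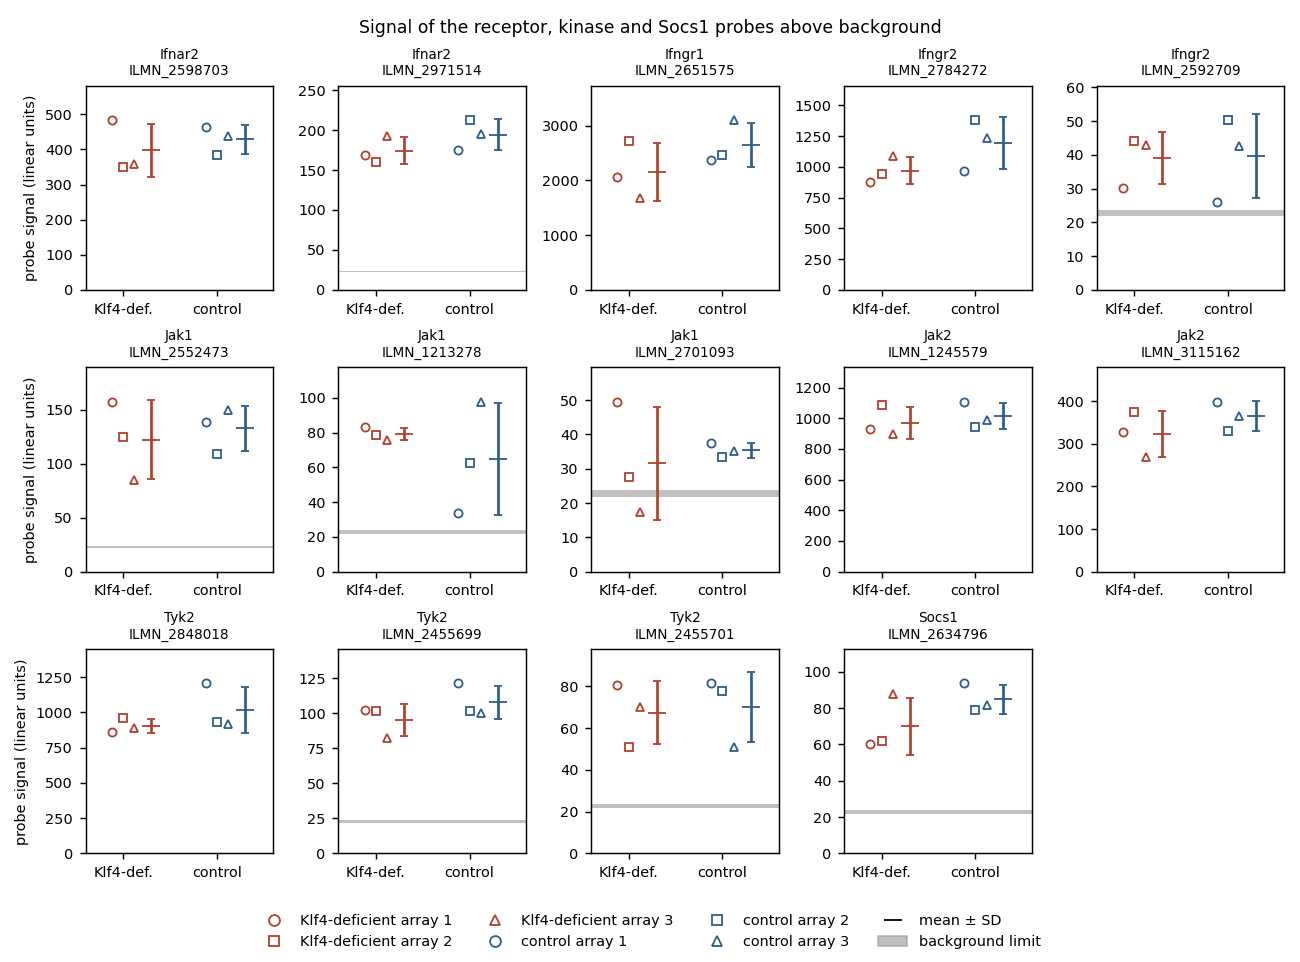
Signal in linear units of the 14 member probes above background on all 3 arrays of at least 1 group, each panel with its own axis from 0, a point per array (Klf4-deficient in red at the left, control in blue at the right), and the mean with its SD. The thin grey band is the background limit. The groups overlap in every panel.

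The kinase transcripts were above background in both groups, and 0 of their 10 probes passed between the groups. Jak1, which serves both receptor classes, had 3 probes that disagree in sign. The first (ILMN_2552473) gave 158, 125 and 84.8 units in the Klf4-deficient arrays, against 139, 109 and 150 in the control arrays, a log2 difference of -0.06 ± 0.20 (SE). That probe was annotated through a cDNA accession that is not among the RefSeq transcripts of Jak1, while the accessions of the other 21 member probes are among those of their genes. The second (ILMN_1213278) gave 83.1, 78.5 and 76 units in the Klf4-deficient arrays, against 33.6, 62.6 and 97.9 in the control arrays. The 3 control values of that probe lie on both sides of all Klf4-deficient values, and the difference of 0.38 ± 0.33 (SE) became 0.05 without control array 1 and 0.65 without control array 3. The third (ILMN_2701093) differed by -0.12 ± 0.27 (SE) and was above background on 2 of 3 Klf4-deficient and 3 of 3 control arrays.

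Jak2, the partner of IFNGR2 and also the kinase of the erythropoietin receptor, had 2 of its 4 probes above background on all 6 arrays. Its first probe (ILMN_1245579) gave 928, 1087 and 894 units in the Klf4-deficient arrays, against 1109, 944 and 985 in the control arrays. The log2 difference was 0.05 ± 0.08 (SE), with a 95% interval from -0.16 to 0.25, which is 0.896-fold to 1.19-fold. A second Jak2 probe (ILMN_3115162), annotated to another RefSeq transcript, gave 329, 375 and 268 units in the Klf4-deficient arrays, against 399, 329 and 366 in the control arrays. It differed by -0.08 ± 0.07 (SE, 95% interval -0.27 to 0.12). Both other Jak2 probes were under background on every array, although one of the brighter probes carries the same accession as they do. Erythroid markers had log2 levels of 0.16, 0.97 and 1.64 over the control mean in Klf4-deficient arrays 1, 2 and 3. In the control arrays they were -0.42, 0.21 and 0.21, and the part of erythroid cells in the Jak2 signal was not tested. The summed signal of the 15 measured erythroid genes, before normalization, ran from 43237 to 59394 units in Klf4-deficient arrays and from 35361 to 43271 in control arrays. Hba-a1 alone gave 36556 to 39931 units in Klf4-deficient arrays and 31501 to 36697 in control arrays.

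Tyk2, the kinase on IFNAR1, gave 862, 960 and 891 units in the Klf4-deficient arrays with its first probe (ILMN_2848018), against 1207, 930 and 917 in the control arrays. In these signals control array 1 was the highest and the other 5 arrays lay close together. The normalized log2 values were 9.76, 9.88 and 10.07 in the Klf4-deficient arrays, against 10.16, 9.92 and 9.78 in the control arrays. Their difference was -0.05 ± 0.13 (SE). The second probe (ILMN_2455699) gave 102, 102 and 82.1 units in the Klf4-deficient arrays, against 121, 102 and 100 in the control arrays. It differed by -0.09 ± 0.07 (SE, 95% interval -0.28 to 0.10). The third (ILMN_2455701) gave 80.9, 51 and 70.2 units in the Klf4-deficient arrays, against 81.5, 78 and 50.9 in the control arrays, a difference of 0.02 ± 0.23 (SE).

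Socs1, the inhibitor whose promoter is printed above, gave 60, 61.9 and 87.8 units in Klf4-deficient arrays 1, 2 and 3, against 93.7, 79 and 81.8 in the control arrays. Klf4-deficient arrays 1 and 2 lay under all 3 control arrays. Array 3 lay among them in these signals, and above them after normalization (log2 value 6.81, against 6.68, 6.59 and 6.57 in the control arrays). The means were 69.9 ± 15.5 units in Klf4-deficient arrays and 84.8 ± 7.81 in control arrays (SD, n = 3 each). The log2 difference was -0.17 ± 0.18 (SE, 95% interval -0.63 to 0.29, adjusted p = 0.858 from limma). It was -0.08 without Klf4-deficient array 1, -0.08 without array 2 and -0.36 without array 3. Isg15 gave 479, 738 and 645 units in Klf4-deficient arrays 1, 2 and 3, against 384, 406 and 406 in the control arrays. Its groups did not overlap, and its log2 difference of 0.70 ± 0.20 (SE, adjusted p = 0.686) did not pass either.

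The counts among the members were set beside those of the whole array. Over all 45281 probes limma called 2 at the adjusted threshold of 0.05 (0.00442%), Commd10 and an unnamed probe under background, and 0 of the 22 member probes. Among the 13 member probes above background on all 6 arrays, which belong to 7 genes, 0 had an unadjusted p under 0.05, against 11.3% of all probes so detected. Of the same 13, 0 had groups that did not overlap, against 16.8%. Of the 13, 9 lay below 0 and 4 above, and 55.3% of all probes so detected lay below 0. Their median log2 difference was -0.05, against -0.02 over all such probes, and their adjusted p ran from 0.824 to 1. The 95% interval held 0 for all 13, lay within 1 log2 unit on both sides for 12 and within 0.5 for 6. The exception among the 13 was the second Jak1 probe, whose interval reached 1.23.

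**Figure D3:**
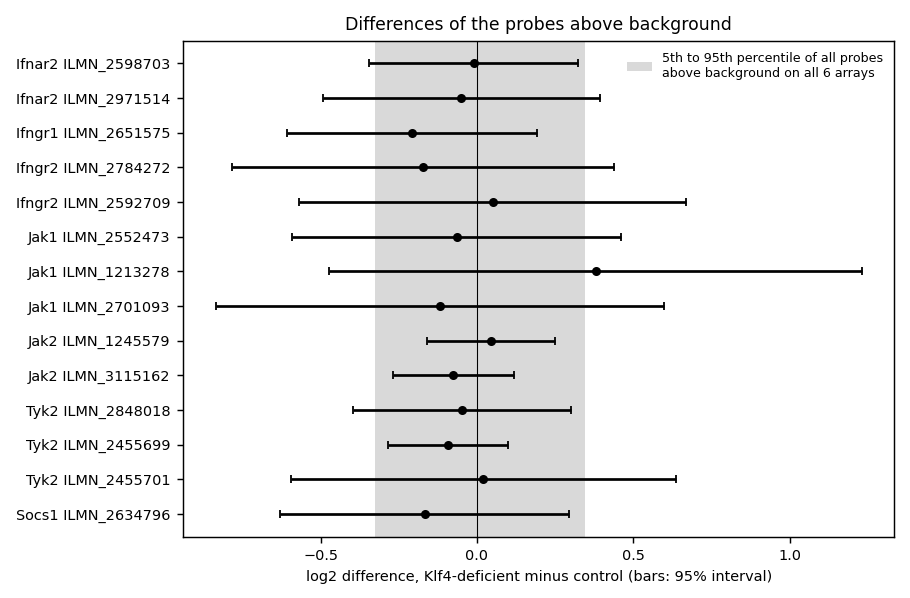
Normalized log2 difference (Klf4-deficient minus control) of the 14 member probes above background on all 3 arrays of at least 1 group, with 95% intervals from limma. The grey band runs from -0.33 to 0.35 and holds the middle of all probes above background on all 6 arrays, from the 5th to the 95th percentile. Every interval crosses 0, and the second Jak1 probe alone lies outside the band.

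Downstream of the receptors, the transcription factors that the kinases act on were also near 0, with 2 genes apart. Stat2, a transcription factor of the type I response, gave 263, 297 and 224 units in the Klf4-deficient arrays, against 325, 283 and 282 in the control arrays (log2 difference -0.07 ± 0.06 SE, adjusted p = 0.824). Stat3 differed by 0.09 ± 0.08 (SE). Irf9, a DNA-binding partner of STAT2 and itself an interferon-induced gene, gave 531, 550 and 493 units in the Klf4-deficient arrays, against 374, 283 and 365 in the control arrays. Its groups did not overlap, and its difference was 0.72 ± 0.09 (SE, adjusted p = 0.329). Jak3, the kinase of receptors with the common gamma chain, gave 142, 172 and 173 units in the Klf4-deficient arrays, against 142, 133 and 125 in the control arrays (0.33 ± 0.13 SE, adjusted p = 0.824). Of the 8 measured genes of this list (STATs, Irf9 and Jak3), 2 had an unadjusted p under 0.05 and were higher, and 0 were lower, against 3.48% higher and 4.13% lower over all genes. The list's median was 0.01, and -0.02 without control array 2, -0.03 with median-centred arrays and -0.05 without normalization.

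Among 18 inhibitors of JAK-STAT signalling, 3 genes were higher and 2 were lower by an unadjusted p under 0.05, against 3.48% and 4.13% of all genes. In limma 0 passed the adjusted threshold, against 0.00525% of all genes. Usp18, a protease that also holds JAK1 off IFNAR2, gave 420, 536 and 408 units in the Klf4-deficient arrays, against 222, 150 and 220 in the control arrays. Its difference was 1.24 ± 0.15 (SE, adjusted p = 0.329). Socs6, a relative of Socs1, differed by 0.35 ± 0.04 (SE, adjusted p = 0.348), and the other higher gene, Sh2b3, was under background on every array. The phosphatase Ptpn1, which acts on JAK2 and TYK2, differed by -0.23 ± 0.06 (SE, adjusted p = 0.676), and Pias1, a SUMO ligase, by -0.11 ± 0.03 (SE, adjusted p = 0.721). Socs3, the inhibitor of gp130 signalling, gave 1110, 1504 and 1200 units in the Klf4-deficient arrays, against 2249, 1480 and 1239 in the control arrays (-0.23 ± 0.26 SE). The phosphatases Ptpn2 and Ptpn6 differed by 0.27 ± 0.14 and 0.22 ± 0.09 (SE). The median of the list was 0.11, against 0 over all genes. It was 0.05 without Klf4-deficient array 3, -0.03 without control array 2, 0.05 with median-centred arrays and 0.02 without normalization.

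Receptors that share these kinases with the interferon receptors were mixed. Of 24 measured genes, 12 were above background on all 6 arrays, 0 were higher and 2 were lower by an unadjusted p under 0.05, against 3.48% and 4.13% of all genes. Their median was 0.05, and -0.07 without Klf4-deficient array 3, 0.11 without Klf4-deficient array 1 or control array 3, 0.09 without control array 1 and 0.03 without control array 2 or without normalization. Both of the lower genes, the receptors Ghr and Lepr, were under background on every array. Il6st, which encodes gp130 and uses JAK1, gave 362, 292 and 214 units in the Klf4-deficient arrays, against 452, 341 and 405 in the control arrays (-0.36 ± 0.15 SE, adjusted p = 0.824). Il7r, which also uses JAK1, differed by 0.30 ± 0.19 (SE). Epor, the erythropoietin receptor that uses JAK2, gave 28.7, 59.8 and 98.3 units in Klf4-deficient arrays 1, 2 and 3, against 29.1, 31 and 33.4 in the control arrays. Erythroid markers were likewise lowest in array 1 and highest in array 3 of the Klf4-deficient group, and their part was not tested. Outside that list, Il10rb, the chain that interferon lambda shares with interleukin 10, gave 36.1, 40 and 46.2 units in the Klf4-deficient arrays, against 60, 55.1 and 57.9 in the control arrays. Its groups did not overlap (-0.32 ± 0.10 SE, adjusted p = 0.755). Ifnlr1, its partner, differed by 0.46 ± 0.57 (SE), with Klf4-deficient array 3 at 188 units and the other arrays between 42.8 and 91.4.

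Among the genes that interferon induces, more lay higher than lower in the arrays labelled Klf4-deficient, while 0 passed the adjusted threshold. Of 35 measured type I targets, 17 were higher and 0 were lower by an unadjusted p under 0.05, against 3.48% and 4.13% of all genes. Their median log2 difference was 0.24, against 0 over all genes. The list was chosen with earlier results of these data known, so its direction is no independent evidence. Usp18, Irf9, Irf7, Dhx58, Stat2, Zbp1, Ddx58 and Ifih1 are counted in this list and in another one used here. Rsad2, an antiviral enzyme, gave 737, 1290 and 2683 units in Klf4-deficient arrays 1, 2 and 3, against 406, 390 and 632 in the control arrays. The RNA-editing enzyme Adar differed by 0.18 ± 0.03 (SE) and Ifi35 by 0.38 ± 0.08 (SE). Of 32 interferon gamma targets, 4 were higher and 1 was lower by an unadjusted p under 0.05, with a median of 0.14, which was 0.09 with median-centred arrays and 0.06 without normalization. Gbp3, a guanylate-binding GTPase, differed by 0.67 ± 0.17 (SE, adjusted p = 0.641) and Nlrc5, the activator of class I genes, by 1.41 ± 0.37 (SE, adjusted p = 0.661). H2-D1, a class I antigen-presenting molecule, differed by 0.72 ± 0.14 (SE, adjusted p = 0.548), and Tap2, the peptide transporter of the same pathway, by -0.21 ± 0.05 (SE, adjusted p = 0.597). Irf1, a direct target of interferon gamma, gave 4513, 4470 and 2640 units in the Klf4-deficient arrays, against 3818, 3332 and 3837 in the control arrays (0.14 ± 0.16 SE).

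**Figure D4:**
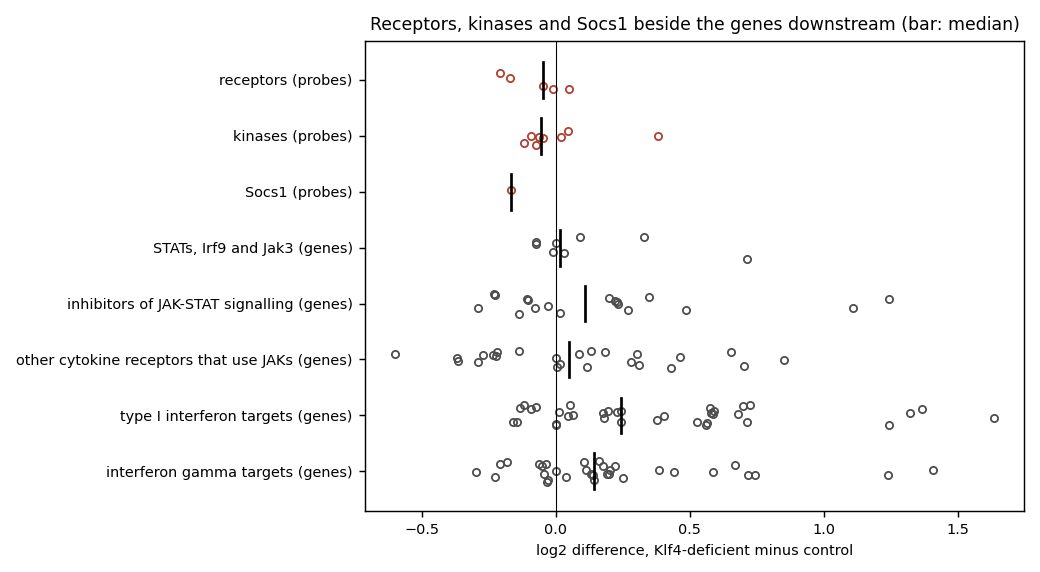
Log2 difference (Klf4-deficient minus control) of the member probes above background on all 3 arrays of at least 1 group (red, by role) and of every measured gene of 5 downstream lists (grey), with a bar at each median. The members lie between -0.21 and 0.38, and the 35 type I targets between -0.16 and 1.64 with a median of 0.24.

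Monocyte and erythroid markers, like the target lists, lay higher in the Klf4-deficient arrays, although 0 of their genes passed the adjusted threshold in limma. By an unadjusted p under 0.05, 6 of 25 monocyte and 2 of 15 erythroid genes were higher and 0 lower, against 3.48% and 4.13% of all genes. The mean log2 level of the type I targets was 0.21, 0.40 and 0.58 in Klf4-deficient arrays 1, 2 and 3, against -0.05 to 0.04 in control arrays. In the same Klf4-deficient arrays monocyte, macrophage and dendritic markers lay at 0.21, 0.53 and 1.15, against -0.05 to 0.06 in control arrays. Of the 25 measured monocyte genes 24 lay above 0, their summed signal ran from 5656 to 13994 units in Klf4-deficient arrays and from 4762 to 6298 in control arrays, and Cd163, Itgax, Flt3 and Clec9a were under background on every array. Among the 15 erythroid genes 13 lay above 0, with Epb42 and Rhd under background on every array. Without Klf4-deficient array 3 the median of the type I targets was 0.28. The median log2 difference was 0.09 for B lineage genes (-0.05 without control array 1), 0 for megakaryocyte genes and -0.10 for stromal genes. For neutrophil genes it was 0.39, and -0.17 without Klf4-deficient array 3. The summed signal of the 15 measured neutrophil genes ran from 77425 to 149962 units in Klf4-deficient arrays and from 76379 to 106295 in control arrays. That of the 12 measured double-positive thymocyte genes ran from 78681 to 90559 and from 93450 to 99491. These sums are of signals before normalization, so they also carry the differences in mean signal between arrays, which ran from 359 to 445 units. The sort for GFP, CD4 and CD8 is meant to leave out other marrow cells. The part of such cells in the target lists and in the signals of the members was not tested. The levels of double-positive thymocyte genes were -0.14, -0.05 and -0.12 in Klf4-deficient arrays, against -0.02 to 0.01 in control arrays.

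**Figure D5:**
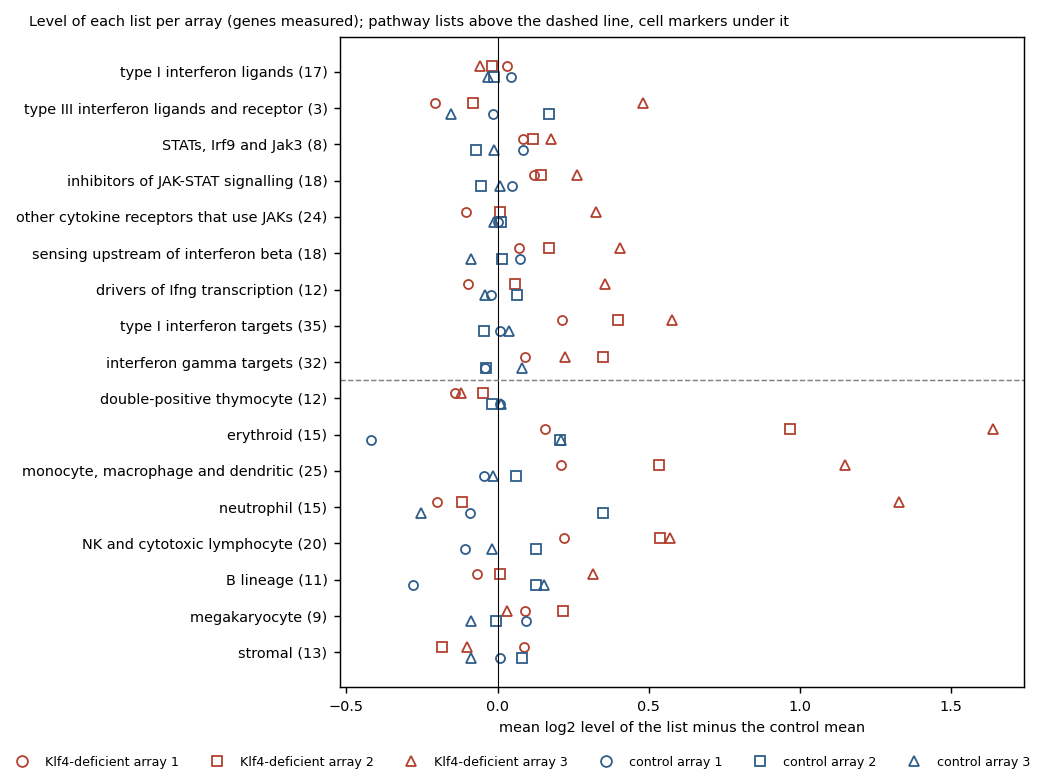
Mean log2 level of each list per array relative to the control mean, with the number of genes measured in brackets, Klf4-deficient arrays in red above control arrays in blue. Klf4-deficient array 3 is the farthest right for erythroid genes at 1.64, for neutrophil genes at 1.33 and for monocyte genes at 1.15, while the type I interferon ligands, 13 of 17 of them under background on every array, lie between -0.06 and 0.05.

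Genes with the profile over the 6 arrays most like that of a member are given as a description. Among 8360 genes above background on all 6 arrays, Ptpre (Pearson r = 0.994), Gnptg (0.991), Mansc1 (0.985), 2410002F23Rik (0.984) and Nfrkb (0.981) were most like Socs1. Scand1 (r = 0.988), Lrrc4 (0.985), Dmac1 (0.981), Gsk3b (0.981) and Pde4d (0.980) were most like Ifngr1, and Bicd2 (r = 0.989), Try10 (0.987), Tmem127 (0.984), Gm21992 (0.970) and Spryd4 (0.963) most like Jak2. The points are 6 arrays that share their platform and normalization, and 66, 61 and 44 genes passed r = 0.9 with Socs1, Ifngr1 and Jak2, so many genes are nearly as alike.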

How the data were processed

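Each deposited column holds the linear intensity of every probe on 1 array, which the authors exported from BeadStudio (version not stated), per the submitters' processing notes. Between 31.4% and 34.2% of the probes of an array lie below 0 in the deposited table, which goes with subtraction of a background. How it was subtracted and whether arrays were normalized is not stated, and detection p-values were not used here.

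Negative values were raised to 0, an offset of 16 was added, and quantile normalization followed on the log2 scale. limma 3.58.1 in R 4.3.3 (lmFit, eBayes with a variance trend) was fitted to all 45281 probes, with Benjamini-Hochberg adjustment over all of them and a threshold of 0.05. Differences are on the log2 (value + 16) scale, which understates those of dim probes. Whether groups overlap was read from the normalized values. The platform annotation gave 34885 probes 1 symbol, 18 several and 10378 none here. Lists use the brightest probe of each gene, and their summed signals are of the values before normalization. With 3 arrays a group, the smallest p of an exact permutation test is 0.10, and none was run. The number of arrays limits the precision.

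The members and lists were chosen with earlier results of these data known. Named are every probe of the 10 members, Klf4, 14 fixed pathway genes where measured here, and up to 4 genes per list. The genes per list had the smallest unadjusted p among those above background on all arrays of a group. Isg15, Rsad2, Irf1, Ghr, Lepr, Sh2b3, Il12rb2, Stat4, marker genes and Commd10 were added after their values were seen. Promoter sequences are from RefSeq on GRCm38.p6, and all 10 members matched. Alternatives were other scalings, offsets, probe summaries and variance models, the replicate number as a block, and leaving out each array.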

Additional observations from a re-analysis of the deposited data

How the results depend on the processing

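Under all 18 alternatives to the fit, 0 member probes passed in limma. The number of member probes above background on all 6 arrays was 14 with the limit at 2 SD and 11 at 5 SD, against 13. Over all probes, where 1 was called higher and 1 lower, the calls higher were 0 with arrays centred on the median, with the mean of the probes of a gene and with the replicate block, and 2 with an offset of 1, the brightest probe of each gene, no variance trend and robust moderation. The calls lower were 0 with arrays centred on the median, cyclic loess, only probes above background, the brightest probe, the mean of the probes and the replicate block. Without Klf4-deficient array 1, 2 or 3 there were 45, 34 and 31 calls higher and 4, 1 and 1 lower. Without control array 1, 2 or 3 there were 1, 3 and 3 calls higher and 21, 26 and 42 lower. Leaving the arrays without normalization moved the median of the probes above background to -0.11.

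Whether the replicate numbers pair the arrays could not be decided. Deviations from the group mean correlated at 0.16, -0.03 and -0.18 across probes for arrays numbered 1, 2 and 3. For arrays of unlike number the correlations ran from -0.25 to 0.22. Deviations within a group sum to 0, so these correlations depend on one another. With the replicate block 0 member probes passed.

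Of 238 member values under an alternative, 216 kept their sign and 22 turned, none with a call. For Ifnar2 the first probe was at 0.0083 with cyclic loess and from -0.12 to 0.11 when 1 array was left out, and the second from -0.19 to 0.050. For the second Ifngr2 probe the values were -0.0020 with no normalization and -0.15 to 0.21 with 1 array left out. The first Jak1 probe was at 0.066 with the mean of the probes and from -0.24 to 0.11 with 1 array left out, and the probe near background from -0.38 to 0.10. Jak2 turned to -0.038 with median-centred arrays and to -0.063 without normalization. With 1 array left out, the first Tyk2 probe ran from -0.13 to 0.056 and the dimmest from -0.15 to 0.20. The dimmest probe, ILMN_2455701, also turned to -0.019 with median-centred arrays, -0.044 without normalization and -0.0070 with array weights. The cause was not tested.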

Other observations

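Genes that sense nucleic acids upstream of interferon beta were measured beside the undetected ligand. Of 18 measured genes, 11 lay above 0, 5 below and 2 at 0. By an unadjusted p under 0.05, 2 were higher and 0 lower, against 3.48% and 4.13% of all genes. The median log2 difference was 0.11, against 0 over all genes, and was 0.05 without Klf4-deficient array 3, 0.18 without control array 1 and 0.05 without normalization. Both genes are themselves interferon-induced: Irf7, a transcription factor, gave 63.3, 95.9 and 97.9 units in Klf4-deficient arrays 1, 2 and 3, against 63.8, 59.7 and 48.4 in the control arrays, and Dhx58, an RNA helicase, gave 96.1, 150 and 172, against 85, 92.1 and 74.9. Irf5, a factor of myeloid cells, gave 48.7, 71.7 and 127 units in the Klf4-deficient arrays, against 51.4, 34.3 and 22.8 in the control arrays. Tlr7, a receptor for single-stranded RNA, differed by 0.46 ± 0.27 (SE). The mean level of the list was 0.07, 0.17 and 0.40 in the Klf4-deficient arrays, against -0.09 to 0.07 in control arrays, and monocyte markers of the same Klf4-deficient arrays lay at 0.21, 0.53 and 1.15, whose part was not tested.

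Of 12 measured genes that drive Ifng transcription, 8 lay above 0, 3 below and 1 at 0, and 5 were above background on all 6 arrays. None had an unadjusted p under 0.05 in limma, against 3.48% of all genes higher and 4.13% lower. The median log2 difference was 0.15, and ran from 0.05 without Klf4-deficient array 2 to 0.27 without Klf4-deficient array 1. It was 0.07 without Klf4-deficient array 3, 0.09 with median-centred arrays and 0.07 without normalization. Il18rap, a chain of the interleukin 18 receptor, gave 17.1, 27.8 and 23.6 units in the Klf4-deficient arrays, against 53, 62.7 and 31.1 in the control arrays (log2 difference -0.66 ± 0.26 SE, adjusted p = 0.824). Il12rb1, a chain of the interleukin 12 receptor that uses TYK2, differed by 0.18 ± 0.10 (SE). Il12a, a subunit of interleukin 12, gave 22.6, 16.7 and 24.3 units in the Klf4-deficient arrays, against 30.2, 76.6 and 33.2 in the control arrays. It differed by -0.63 ± 0.34 (SE) and passed the limit on 2 of 3 Klf4-deficient and 3 of 3 control arrays. Il12rb2, the other chain of the interleukin 12 receptor, differed by -0.29 ± 0.19 (SE). Il15, a cytokine that sustains natural killer cells, gave 49.5, 51.3 and 136 units in the Klf4-deficient arrays, against 32.5, 45.6 and 44.2 in the control arrays. Stat4, which interleukin 12 activates, differed by 0.03 ± 0.11 (SE).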
